A study of Mus musculus with 18 samples.

Results

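The natriuretic peptide system was read here in 8 genes of the mouse left ventricle (LV): the peptide genes Nppa, Nppb and Nppc, the receptor genes Npr1, Npr2 and Npr3, and the processing enzymes Corin and Furin. They were chosen by symbol from the 51435 genes of the deposited tables. RNA-seq had been done on the LV of 18 mice, of which 9 were wild type (WT) and 9 carried a mutated Wwp2, an E3 ubiquitin ligase gene, on both alleles (WWP2 Mut/Mut, labelled KO). The mutation was a small deletion in exon 2 made by CRISPR/Cas9 on a C57BL/6J background, which disrupts the full-length and N-terminal isoforms and may leave the C-terminal isoform in place. The WT mice were littermates, and per the study's methods the mice were male. All 18 mice, WT included, had received angiotensin II (AngII) at 500 ng/kg/min for 28 days from an osmotic minipump implanted at 8 weeks of age, so that the comparison is between genotypes under AngII and no value is a response to AngII.

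Natriuretic peptides are hormones that heart muscle makes when it is stretched. ANP, from Nppa, and BNP, from Nppb, are made as precursors that the membrane protease corin and the proprotein convertase furin cut, and they act through the guanylyl cyclase receptor encoded by Npr1, which raises cyclic GMP and lowers blood pressure. CNP, from Nppc, is mainly a vascular and growth plate peptide that acts through the receptor encoded by Npr2, while the receptor encoded by Npr3 takes up and clears these peptides. In the adult heart, Nppa is a marker of the atria and returns in the stressed ventricle together with Nppb.

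The libraries held between 24566994 and 37451087 estimated gene counts (median 31168997), in 4 sequencing lanes with 2 or 3 mice of each genotype per lane. Levels are given in TPM (transcripts per 1000000), a unit that accounts for transcript length and can be compared between genes. Wwp2 checked the labels: its level was 5.09 ± 0.600 TPM in WT and 1.72 ± 0.528 TPM in WWP2 Mut/Mut (mean ± SD, n = 9 each), with all 9 mutant mice below all WT mice (p = 4.11e-05 in a 2-sided exact permutation test, as low as 9 against 9 can give). Wwp2 was the 1 gene of 24804 called between genotypes (edgeR quasi-likelihood test, Benjamini-Hochberg adjusted p under 0.05), which is 0.00403% of the genes tested, and none of the 8 members was called. The summed level of 6 cardiomyocyte markers was 13205.6 to 19270.9 TPM in every mouse, and the atrial light chain gene Myl7 was at 7.14 TPM or less in 13 mice but between 48.67 and 338.04 TPM in the other 5 (3 WT, 2 WWP2 Mut/Mut). RNA concentration had a median of 98.3 ng/µl in WT and 187.4 ng/µl in WWP2 Mut/Mut, with 1 WT mouse at 1.68 ng/µl, and it was a covariate of the edgeR fit together with lane.

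Nppa and Nppb are neighbours on mouse chromosome 4 (GRCm38). Nppb (ENSMUSG00000029019) spans 147985788 to 147987205 and Nppa (ENSMUSG00000041616) spans 148000722 to 148002079, both on the plus strand, with 13516 bases and no annotated gene between them. Their promoters are shown because Nppa and Nppb are the 2 abundant peptide genes and are read side by side below; neither was called between genotypes. Each sequence runs 5′ to 3′ on the plus strand, from 250 bases before to 50 bases after the RefSeq transcript start (GRCm38.p6), at chr4:148000472-148000771 for Nppa and chr4:147985650-147985949 for Nppb. Capitals mark matches on either strand to 4 motifs: GATAA (bound by GATA factors), AAGTG (the core bound by Nkx2-5), CATTCC (the M-CAT element bound by TEAD factors) and TATAAA (the TATA box).
Nppa: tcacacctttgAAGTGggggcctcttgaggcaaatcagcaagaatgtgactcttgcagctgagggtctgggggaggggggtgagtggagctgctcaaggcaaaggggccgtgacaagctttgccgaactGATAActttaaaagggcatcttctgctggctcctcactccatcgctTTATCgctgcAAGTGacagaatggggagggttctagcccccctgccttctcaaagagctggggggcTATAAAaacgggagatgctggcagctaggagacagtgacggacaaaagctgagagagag
Nppb: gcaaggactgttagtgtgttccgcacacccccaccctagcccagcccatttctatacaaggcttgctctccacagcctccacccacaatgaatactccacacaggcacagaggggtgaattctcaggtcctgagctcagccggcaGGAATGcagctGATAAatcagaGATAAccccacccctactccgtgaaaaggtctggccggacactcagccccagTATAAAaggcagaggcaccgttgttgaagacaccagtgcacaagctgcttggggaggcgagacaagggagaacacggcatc
Both promoters held 2 GATAA matches and 1 TATAAA match. The Nppa promoter held 2 AAGTG matches and no CATTCC, and the Nppb promoter held 1 CATTCC match, read on the minus strand, and no AAGTG. None of these matches overlapped another. Among 32851 RefSeq promoters of the same length, GATAA was found in 25.4%, AAGTG in 46.4%, CATTCC in 14.7% and TATAAA in 13.6%. Exact matches to the CArG box (CC and GG around a run of A or T bases) and to the AP-1 motif TGANTCA, searched in the same way, were in neither promoter. They were in 1.63% and 7.81% of all promoters. Sites that differ from a motif by a base were not searched, so such sites may be present.

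Nppa and Nppb were among the most abundant ventricular transcripts. Over the 18 mice, the mean level was 680 TPM for Nppa, 122nd in the table, and 555 TPM for Nppb, 149th. Far below them came Corin (17.8 TPM), Npr2 (15.99 TPM), Furin (14.1 TPM), Npr1 (5.89 TPM), Npr3 (0.995 TPM) and Nppc (0.0128 TPM). The ranges of Nppa and Nppb overlapped each other, as did those of Corin, Npr2 and Furin, and the range of Npr1 (3.68 to 9.25 TPM) met only that of Furin. The ranges of the other neighbours in this order were apart: the lowest Nppb level was 139.79 TPM against a highest Corin level of 28.66 TPM, and Npr3 reached at most 1.48 TPM.

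For Nppa, the gene of ANP, no difference was found between the genotypes. It ranged from 353.56 to 1047.13 TPM in WT (median 778.04) and from 316.55 to 801.47 TPM in WWP2 Mut/Mut (median 700.93), and the 2 ranges overlapped over most of their length. The means were 718 ± 235 and 641 ± 157 TPM (n = 9 each; 2-sided exact permutation test on log2(TPM + 1), p = 0.587). In the edgeR fit with lane and RNA concentration, the log2 fold change of WWP2 Mut/Mut over WT was 0.05 (SE 0.294, n = 18, p = 0.873, adjusted p = 1). Its sign was not settled: 10 other settings of the fit gave values from -0.24 to -0.018, as did leaving out mutant mouse 52-1 (-0.025), WT mouse 25-3 (-0.066) or WT mouse 45-1 (-0.14), and none of them was called. An antisense gene, Gm13054, overlaps Nppa at a mean of 0.199 TPM, and the strand setting of the counting was not given in the sources used here.

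Nppb, the gene of BNP, was lower in most WWP2 Mut/Mut mice. It ranged from 235.47 to 1280.45 TPM in WT (median 834.83) and from 139.79 to 651.43 TPM in WWP2 Mut/Mut (median 327.34). All 9 mutant mice lay below the WT median, 4 of them below every WT mouse, and 6 WT mice lay above every mutant mouse, so the groups overlapped in their middle. The mean levels were 762 ± 317 and 348 ± 165 TPM (n = 9 each), a ratio of WT to mutant of 2.19, and Nppb ranked 111th in WT but 224th in the mutant. The difference on the log2(TPM + 1) scale was -1.13 (2-sided exact permutation test without covariates, p = 0.00588, not adjusted for the 8 members compared in this way). Over both genotypes pooled, Nppb had the highest coefficient of variation of the members above 1 TPM, 58.5%. That was above 97.0% of the 11334 genes with a mean above 1 TPM, and Nppa was at 29.1%. The pooled value includes the difference between the genotype means. Within each genotype the SD relative to the mean was larger for Furin (14.9 ± 7.18 TPM in WT, 13.4 ± 6.81 TPM in WWP2 Mut/Mut) than for Nppb.

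The size of the Nppb difference depended on the covariates, and it was not called by any fit across all genes. In the edgeR fit with lane and RNA concentration its log2 fold change was -0.66 (SE 0.336, n = 18, p = 0.0639, adjusted p = 1), and without covariates it was -0.97 (SE 0.313, p = 0.00529, adjusted p = 0.956). The mean of Nppb was lower in WWP2 Mut/Mut in each of the 4 lanes: 187 against 804 TPM, 308 against 403 TPM, 482 against 1123 TPM and 435 against 731 TPM (2 or 3 mice per group). The median RNA concentration differed between the genotypes, and WT mouse 43-3 was at 1.68 ng/µl where the next lowest mouse was at 88.6 ng/µl; the value was used as deposited, and whether it is a recording error was not tested. Without that mouse the edgeR value of Nppb was -0.69 (n = 17, p = 0.0602, adjusted p = 1). With the concentration on a log2 scale, where that mouse is an extreme point, the edgeR value was -0.79 (n = 18, p = 0.0321, adjusted p = 1). The 5 genes of the liver list (Alb, Apoa1, Apoa2, Ttr and Fgb) also had lower levels in WWP2 Mut/Mut (5 of 5 at an unadjusted edgeR p under 0.05, where 2.57% of all genes were lower, with adjusted p between 0.946 and 1; summed level 1.44 to 263 TPM in WT and 2.74 to 48.6 TPM in WWP2 Mut/Mut). The highest level was that of WT mouse 45-1, with Alb at 112.54 TPM against a WT median of 22.49 TPM, and the exact permutation test of Alb on log2(TPM + 1) gave p = 0.166. With the level of Alb, 1 of them, as a further covariate, Nppb was at -0.64 (n = 18, p = 0.108, adjusted p = 0.706). The part of RNA concentration and of liver RNA in the Nppb difference was not tested beyond these fits.

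**Figure D1:**
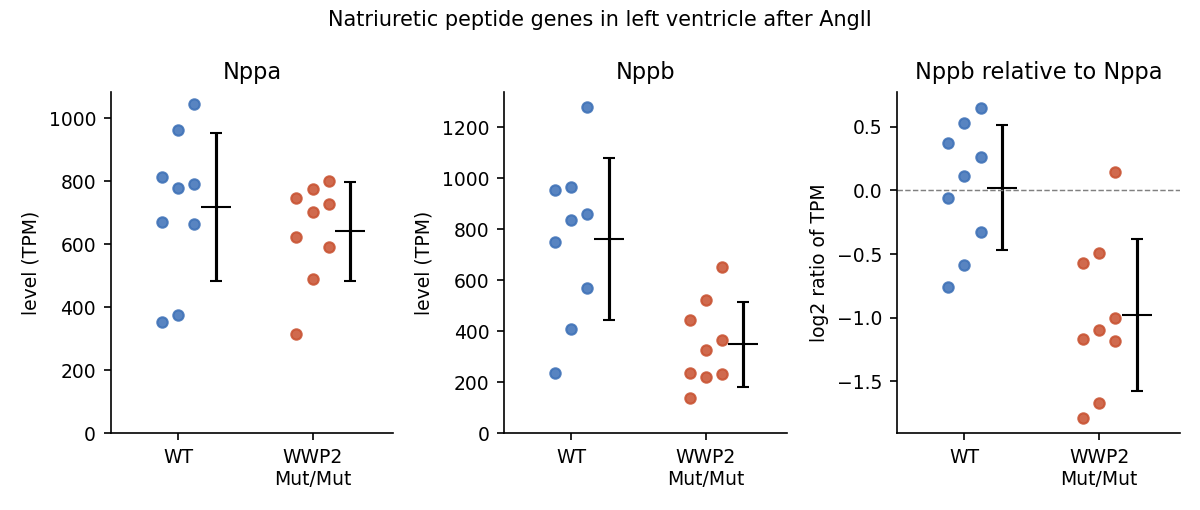
Levels of Nppa and Nppb in TPM, and the log2 ratio of Nppb to Nppa, in each of the 9 WT (blue) and 9 WWP2 Mut/Mut (red) mice, with mean ± SD beside the points; the dashed line marks a ratio of 1. The Nppa points of the genotypes share most of their range, 6 WT mice lie above all mutant mice for Nppb, and 6 mutant mice lie below all WT mice for the ratio.

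The ratio of these 2 neighbouring genes was looked at after their levels had been seen, so its values are a description of these mice and its p is not independent evidence of a difference. The ratio of Nppb to Nppa TPM ranged from 0.592 to 1.57 in WT (median 1.08) and from 0.290 to 1.10 in WWP2 Mut/Mut (median 0.467). Nppb was the more abundant transcript in 5 of 9 WT mice and in 1 of 9 mutant mice, and 6 mutant mice lay below every WT mouse. The mean log2 ratio was 0.02 ± 0.4935 in WT and -0.98 ± 0.600 in WWP2 Mut/Mut, a difference of -1.002 (2-sided exact permutation test, without covariates, n = 9 each, p = 0.00230). In a linear fit with lane and RNA concentration the difference was -0.79 (SE 0.227, n = 18, permutation p = 0.00485), and with Alb added it was -0.68 (SE 0.274, n = 18, permutation p = 0.0307). The difference was below 0 in all 4 lanes, at -1.58, -0.62, -1.12 and -0.53. Leaving out each mouse in turn gave differences from -1.14 to -0.90. Among the 13 mice low in Myl7, the ratio differed by -0.95 (exact permutation test, 6 WT and 7 mutant mice, p = 0.0169).

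Nppc was at the limit of detection. Its estimated count was 0 in 11 mice, 1 in 6 mice and 3 in 1 mutant mouse, in which its level was 0.07 TPM. Over all mice of a genotype the count summed to 4 in WT and 5 in WWP2 Mut/Mut. A floor of 3 counts corresponded to 0.0801 to 0.122 counts per 1000000 in these libraries, so both genotypes were at or under it and a difference in Nppc was not detectable at this depth. This covers counting error only.

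Atrial tissue was read from Myl7 beside each peptide gene. The 5 mice with Myl7 above 48 TPM did not have more Nppa: it ranged from 353.56 to 814.98 TPM in them (median 670.05) and from 316.55 to 1047.13 TPM in the other 13 (median 727.54). The WT mouse with the highest Myl7, at 338.04 TPM, had the lowest Nppa of the WT mice, 353.56 TPM, and the WT mouse with the highest Nppa, 1047.13 TPM, had the lowest Myl7, 0.09 TPM. Nppb had medians of 522.7 TPM in the 5 mice and 441.97 TPM in the 13. The 6 atrial markers together summed to between 7.57 and 647.4 TPM in WT (median 12.4) and between 9.43 and 418 TPM in WWP2 Mut/Mut (median 13.2). Myl4, Sln and Dkk3 set the same 5 mice apart, with at least 40.21, 4.23 and 1.79 TPM in them against at most 9.53, 0.46 and 1.29 TPM in the other 13. Kcnj3 overlapped (7.09 to 10.44 against 3.85 to 10 TPM), and Bmp10, an atrial ligand gene, did not exceed 0.03 TPM in any mouse.

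Since Myl7 separated the mice into these 2 clusters, correlations with Myl7, and of Nppa and Nppb with the other members, were computed within the 13 mice low in Myl7. Within the 13 mice low in Myl7, Nppa and Myl7 gave Pearson r = 0.22 (permutation p = 0.453) and Spearman rho = 0.07 (permutation p = 0.822), and without the 2 mice farthest from the median of Myl7 r was 0.25. None of the 8 members passed in this family of 8 relations: the smallest Pearson p was that of Npr3 (r = -0.51, permutation p = 0.0789, Benjamini-Hochberg adjusted p = 0.631; rho = -0.16, permutation p = 0.606). That relation rested on the extreme mice, since r was 0.34 without the 2 mice farthest from the median of Myl7, and r was 0.76 within WT and -0.77 within WWP2 Mut/Mut. With log2 Myl7 added to the edgeR fit, the log2 fold change of Nppa was 0.12 (SE 0.257, n = 18, p = 0.643, adjusted p = 1) and that of Nppb was -0.66 (SE 0.276, p = 0.0286, adjusted p = 1). In the fit without the 5 mice, Nppa was at -0.24 and Nppb at -0.90 (SE 0.354, n = 13, p = 0.0227, adjusted p = 1).

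**Figure D2:**
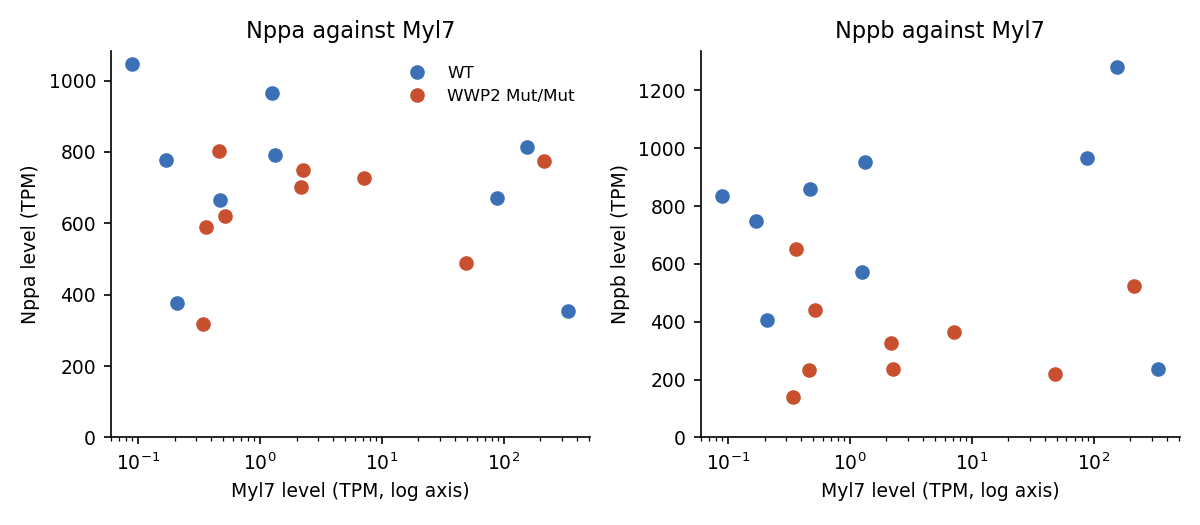
Level of Nppa and of Nppb (TPM, linear axis) against the level of the atrial gene Myl7 (TPM, log axis), 1 point per mouse, WT in blue and WWP2 Mut/Mut in red. The 5 mice at 48.67 TPM of Myl7 or more have Nppa levels of 353.56 to 814.98 TPM, inside the range of the other 13.

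Across these 13 mice the peptide genes and the other members were compared in 13 pairs, of which none passed after adjustment by Pearson or by Spearman. Nppa and Nppb gave r = 0.51 (permutation p = 0.0711) and rho = 0.30 (permutation p = 0.315, adjusted p = 0.513), and r fell to 0.15 without the 2 mice farthest from the median of Nppa. The pair with the smallest p was Nppb and Corin (r = -0.56, permutation p = 0.0471, adjusted p = 0.267; rho = -0.37, permutation p = 0.209). Within genotypes this pair gave r = -0.90 in the 6 WT mice and r = -0.79 in the 7 WWP2 Mut/Mut mice (exact permutation p = 0.0306 and 0.0270, adjusted p = 0.397 and 0.351), with rho = -0.49 and -0.68, and over all 13 r was -0.35 without the 2 mice farthest from the median of Nppb. As deviations from the mean of each lane, Nppa and Npr2 passed by both measures (r = 0.68, permutation p = 0.0114, adjusted p = 0.0493; rho = 0.78, permutation p = 0.00261, adjusted p = 0.0339). In that form Nppa with Nppb (r = 0.69, rho = 0.63) and Nppa with Furin (r = -0.74, rho = -0.50) passed by Pearson alone (permutation adjusted p = 0.0493 each). The permutations of these deviations did not allow for the lane means removed, which tends to make their p values too small. Mutant mouse 1-2 was the only one of the 13 in lane 3, so it had no deviation for any gene. On TMM-normalised log2 counts per 1000000, Nppa with Furin (r = -0.76, permutation adjusted p = 0.0411) and Nppb with Corin (r = -0.70, permutation adjusted p = 0.0491) passed by Pearson and no pair by Spearman, so which pairs passed depended on the scale.

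All 3 receptor genes had a lower mean and median TPM in WWP2 Mut/Mut, and none was called. The median log2 fold change over all genes was also below 0 in a linear fit (limma) of log2(TPM + 1), at -0.038. Npr1 (chromosome 3, 90450591 to 90465866, minus strand), the receptor of ANP and BNP, ranged from 4.1 to 9.25 TPM in WT (median 6.29) and from 3.68 to 8.64 TPM in WWP2 Mut/Mut (median 4.85). Npr2 (chromosome 4, 43631935 to 43651244, plus strand), the receptor of CNP, ranged from 14 to 26.7 TPM in WT (median 15.09) and from 12.04 to 20.25 TPM in the mutant (median 14.73). The ranges of the genotypes overlapped for both genes, with 2 mutant mice below every WT mouse for Npr1 and 4 for Npr2. The exact permutation test gave p = 0.257 for Npr1 (6.33 ± 1.76 against 5.45 ± 1.69 TPM, n = 9 each) and p = 0.184 for Npr2 (17.1 ± 4.29 against 14.9 ± 2.61 TPM). In lane 1 the mean was higher in the mutant for Npr1 (6.645 against 5.735 TPM) and for Npr2 (16.76 against 15 TPM), and in the other 3 lanes it was lower for both. Their edgeR log2 fold changes were 0.01 (SE 0.164) and -0.09 (SE 0.117), both with an adjusted p of 1. Without the 5 mice high in Myl7, Npr1 was at 0.23 (SE 0.190, n = 13).

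Npr3, the clearance receptor gene (chromosome 15, 11839896 to 11907287, minus strand), was the member with the smallest p in the edgeR fit. It ranged from 0.77 to 1.48 TPM in WT (median 1.2) and from 0.41 to 1.24 TPM in WWP2 Mut/Mut (median 0.89), on 131 to 503 counts per library. Of the 9 mutant mice, 8 lay below the WT median and 4 below every WT mouse. The means were 1.16 ± 0.247 and 0.834 ± 0.276 TPM, a ratio of WT to mutant of 1.38 (n = 9 each; 2-sided exact permutation test on log2(TPM + 1), p = 0.0209, not adjusted). The edgeR log2 fold change was -0.50 (SE 0.206, n = 18, p = 0.0250, adjusted p = 1). Npr3 was thus the 1 member of 8 that was lower at an unadjusted p under 0.05, where 2.57% of all genes tested were; no member was higher at that p, where 1.09% of genes were, and no member was called. Its mean was 0.885 TPM in WT and 0.865 TPM in the mutant in lane 1, and lower in the mutant in the other 3 lanes (0.743 against 1.18, 0.945 against 1.36 and 0.83 against 1.19 TPM). The unadjusted edgeR p passed above 0.05 when 1 mouse was left out (n = 17): mutant mouse 52-1 (p = 0.0674), mutant mouse 53-1 (p = 0.0953) or WT mouse 45-3 (p = 0.0520). It also did so without the 5 mice high in Myl7 (n = 13, p = 0.0669), without the 6 mice above 4 times the median Myl7 (n = 12, p = 0.209), and with all 18 mice in 3 other fits (n = 18): without covariates (log2 fold change -0.34, p = 0.0632), with lane alone (-0.33, p = 0.0862) and with Alb added (-0.46, p = 0.0738).

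Npr3 is a marker of the endocardium, the inner lining of the heart, and the endocardial genes Nfatc1, Plvap and Cytl1 also had lower means in WWP2 Mut/Mut. Their summed level ranged from 9.73 to 29.35 TPM in WT (median 16.6) and from 9.34 to 17.29 TPM in the mutant (median 13.6), and none of the 3 had an unadjusted p under 0.05 (median log2 fold change -0.24). In bulk tissue, fewer cells of a type and less RNA per cell cannot be told apart. The part of these cells in the Npr3 difference was not tested.

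**Figure D3:**
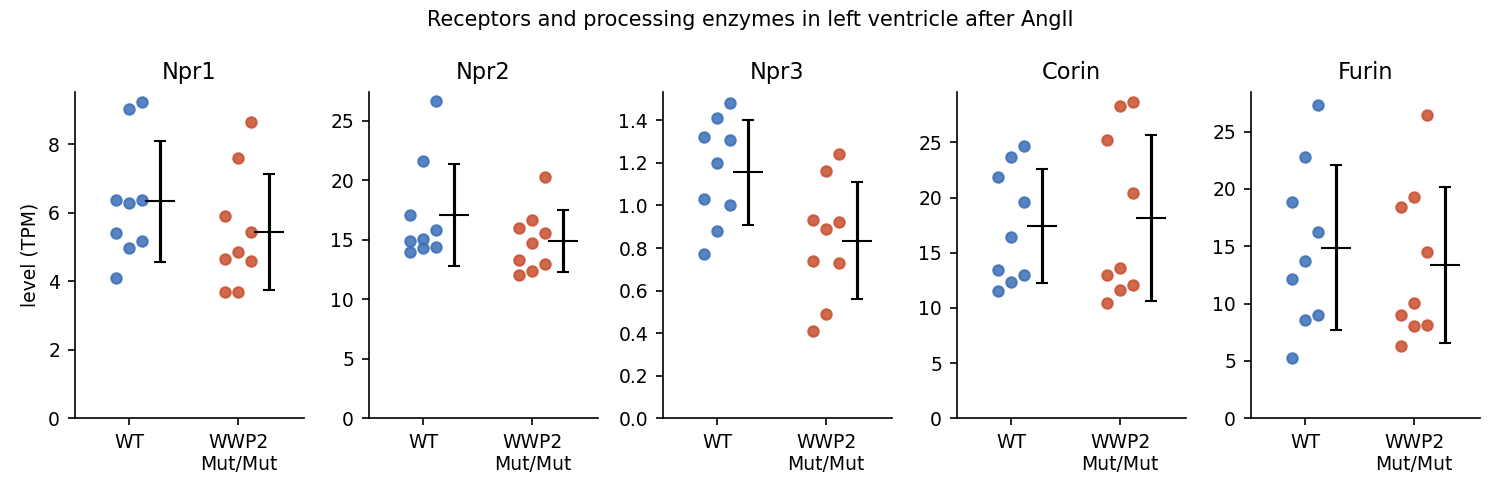
Levels of Npr1, Npr2, Npr3, Corin and Furin (TPM, each on its own axis from 0) in the 9 WT (blue) and 9 WWP2 Mut/Mut (red) mice, with mean ± SD. The genotypes overlap in every panel; for Npr3, 4 mutant mice lie below all WT mice and 4 WT mice above all mutant mice.

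For the processing enzymes, no difference between the genotypes was found. Corin (chromosome 5, 72300025 to 72504473, minus strand), the cardiac protease that cuts the ANP precursor, ranged from 11.5 to 24.68 TPM in WT (median 16.45) and from 10.44 to 28.66 TPM in WWP2 Mut/Mut (median 13.59), with means of 17.4 ± 5.16 and 18.1 ± 7.53 TPM (n = 9 each; exact permutation test, p = 0.960). Furin (chromosome 7, 80388585 to 80405436, minus strand), which cuts the BNP precursor among many substrates, ranged from 5.24 to 27.35 TPM in WT (median 13.73) and from 6.26 to 26.48 TPM in the mutant (median 10.01), with means of 14.9 ± 7.18 and 13.4 ± 6.81 TPM (exact permutation test, p = 0.659). The WT range of Corin lay inside that of the mutant, and for Furin the mutant range lay inside that of WT. Their edgeR log2 fold changes were 0.05 (SE 0.206) and -0.06 (SE 0.268), both with an adjusted p of 1.

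Corin and Furin varied together, and both tracked the gene body coverage of the library. This coverage is a fraction deposited with each sample, for the bottom part of the gene body by its name and without a definition in the sources used here. It lay between 0.0288 and 0.0540, with medians of 0.0383 in WT and 0.0434 in WWP2 Mut/Mut. Against it, Corin gave r = -0.90 and rho = -0.88 and Furin gave r = -0.92 and rho = -0.94 over 18 mice (permutation p at most 2e-05, adjusted p at most 7e-05 over 7 members, with 1e-05 the smallest p these permutations allow). Without the 2 mice farthest from the median coverage r was -0.93 for Corin and -0.88 for Furin, and as deviations from lane means it was -0.93 for both. The 5 mice high in Myl7 also had higher levels of both genes (median 20.42 against 13.01 TPM for Corin, 18.86 against 8.99 TPM for Furin), and 4 of them had a coverage between 0.0288 and 0.0322, near the bottom of its range. Within the 13 mice low in Myl7, Corin gave r = -0.88 and rho = -0.83 (permutation adjusted p = 0.00084 and 0.00252) and Furin gave r = -0.96 and rho = -0.95 (permutation adjusted p = 7e-05 for both). The relation held within each genotype, with rho = -0.95 in WT and -0.83 in the mutant for Corin and -0.88 and -0.93 for Furin. Nppa, Nppb, Npr1, Npr2 and Npr3 had rho between -0.40 and 0.26 over 18 mice and between -0.51 (Npr3) and 0.48 (Npr1) in the 13 mice low in Myl7, and none of them passed after adjustment.

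This relation was not particular to the 2 enzymes. Over 11328 genes and all 18 mice, the median rho with gene body coverage was -0.61, and 20.2% of genes were at or below the rho of Corin and 7.04% at or below that of Furin. Corin and Furin gave r = 0.88 and rho = 0.85 with each other (permutation p = 2e-05 and 1e-05; r = 0.87 and rho = 0.76 in the 13 mice low in Myl7), and over 18 mice r = 0.33 and rho = 0.34 once the part of each that follows gene body coverage had been removed (r = 0.16 and rho = 0.18 in the 13 mice). With the coverage in the edgeR fit, the SE of the genotype difference was 0.111 for Corin (log2 fold change 0.16, adjusted p = 0.978) and 0.107 for Furin (0.10, adjusted p = 1), against 0.206 and 0.268 without it. Nppb was at -0.90 in that fit (SE 0.266, n = 18, p = 0.00313, adjusted p = 0.402).

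**Figure D4:**
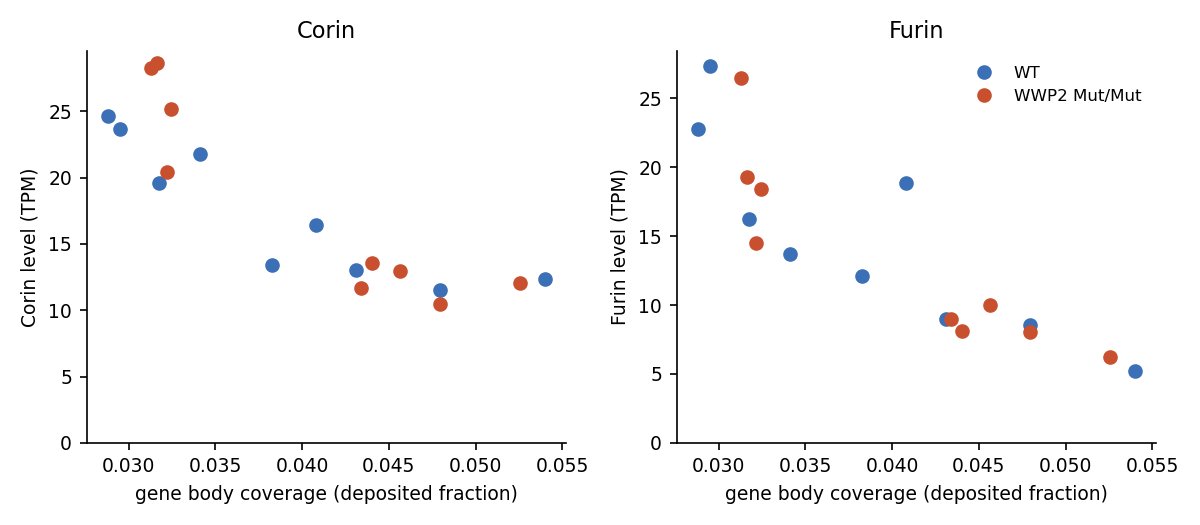
Level of Corin and of Furin (TPM) against the deposited gene body coverage fraction of each library, 1 point per mouse, WT in blue and WWP2 Mut/Mut in red. Both genes fall from over 20 TPM at the lowest coverage to their lowest levels at high coverage, in both genotypes.

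Read as a group, the 8 members had a median log2 fold change of -0.03, beside -0.01 over all 24804 genes, and 4 of the 8 values were below 0. None was called and 1, Npr3, was lower at an unadjusted p under 0.05. The plot of fitted differences shows that Nppb and Npr3 kept a value below 0 under 4 fits, while Nppa, Npr1, Npr2, Corin and Furin lay on either side of 0.

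**Figure D5:**
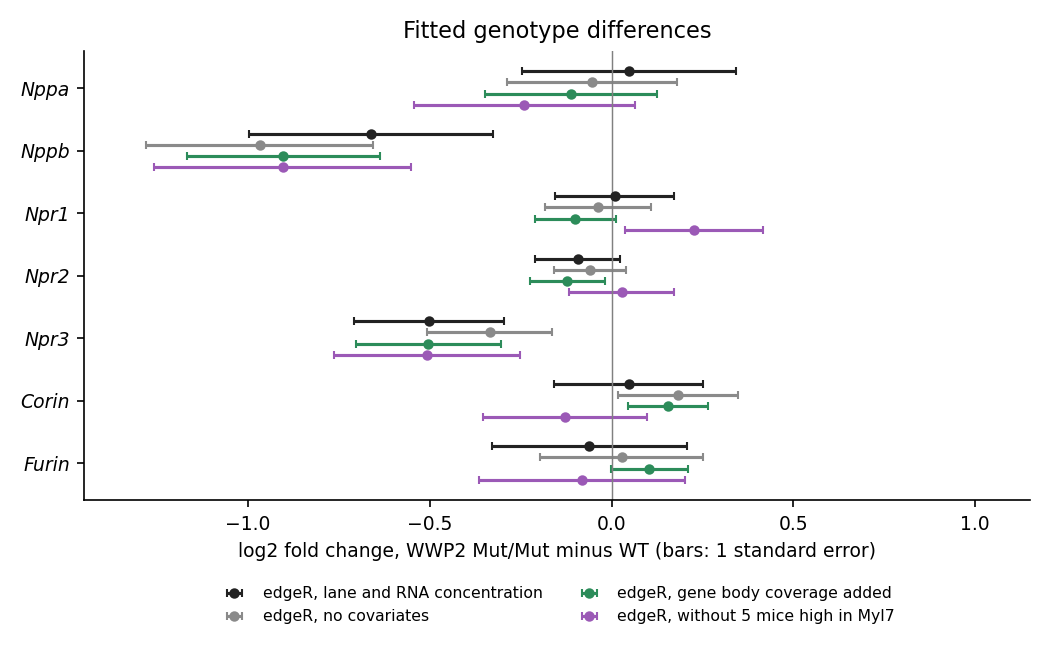
Log2 fold change of WWP2 Mut/Mut over WT for 7 members (Nppc, near 0 counts, is not drawn) in 4 edgeR fits, with bars of 1 standard error. Nppb lies between -0.97 and -0.66 and Npr3 between -0.51 and -0.34, and the other 5 genes change sign between the fits.

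The other genes of the pathway were read from lists. Of 8 further convertases and peptide-clearing enzymes, none had an unadjusted edgeR p under 0.05 (median log2 fold change -0.06); the convertase genes Pcsk6 and Mbtps1 were at 11.9 ± 2.83 and 10.8 ± 2.70 TPM in WT, while Mme, which encodes neprilysin, was at 0.917 ± 0.644 TPM. Of 15 genes downstream of the receptors in cyclic GMP signalling, 1 was higher at an unadjusted p under 0.05, where 1.09% of all genes tested were, and none lower (median 0.01). This was Rgs2, a regulator of G-protein signalling that cyclic GMP-dependent kinase acts on, at 5.35 ± 3.43 TPM in WT and 6.42 ± 2.49 TPM in WWP2 Mut/Mut (log2 fold change 0.65, SE 0.247, n = 18, p = 0.0168, adjusted p = 1). The cyclic GMP phosphodiesterase gene Pde2a was the most abundant of that list in the mutant, at 15.5 ± 2.91 TPM, with a log2 fold change of 0.15 (SE 0.104).

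Of 12 genes on a list of transcriptional regulators of Nppa and Nppb, none had an unadjusted edgeR p under 0.05 (median log2 fold change -0.06). Their binding to the 2 promoters was not tested. Gata4 was at 32.1 ± 10.2 TPM in WT and 26.0 ± 5.68 TPM in WWP2 Mut/Mut, Nkx2-5 at 28.6 ± 4.44 and 26.9 ± 4.72 TPM, and Tead1 at 11.1 ± 7.82 and 8.61 ± 5.75 TPM. Of 8 genes of a cardiac stress list, 7 had a log2 fold change below 0 (median -0.33) and 1 was lower at an unadjusted p under 0.05, where 2.57% of all genes tested were. This was Ccn2, which encodes the matricellular protein CTGF, at 56.2 ± 19.4 TPM in WT and 28.6 ± 8.45 TPM in the mutant (log2 fold change -0.62, n = 18, p = 0.00852, adjusted p = 0.963). Acta1, the fetal skeletal actin gene, was at -0.51 (SE 0.276) and Myh7, the slow myosin gene, at -0.37 (SE 0.240). The list also holds Myh6 (-0.07) and Atp2a2 (-0.05), adult heart muscle genes that are known to fall under stress, so its 8 genes have no common direction in stress.

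The genes whose levels were ordered across the 18 mice most like Nppb were Tmem208 (rho = 0.91), Tnfrsf12a (0.89), Alkbh7 (0.87), Bola3 (0.87) and Sft2d1 (0.86), out of 11328 genes. Tnfrsf12a, the receptor of the cytokine TWEAK, was at 121 ± 49.6 TPM in WT and 65.8 ± 26.4 TPM in WWP2 Mut/Mut. In the 13 mice low in Myl7, these 5 genes had rho between 0.79 and 0.90 with Nppb. Within genotypes their rho lay between 0.68 and 0.97 in WT and between 0.70 and 0.93 in WWP2 Mut/Mut (n = 9 each), while all 5 had lower means in WWP2 Mut/Mut, as Nppb did. Of the cardiac stress list, Ccn2 gave rho = 0.72 with Nppb and 0.34 with Nppa over 18 mice (0.70 and 0.38 in the 13). Within genotypes Ccn2 gave 0.52 in WT and 0.62 in WWP2 Mut/Mut with Nppb, and 0.40 and 0.017 with Nppa. Over 18 mice Myh7, Acta1, Ankrd1 and Xirp2 gave lower rho with Nppb (0.30, 0.38, 0.30 and 0.19). The genes most like Nppa were Uchl1 (0.81), Cd63 (0.78), Tnnt1 (0.75), Nrtn (0.75) and Mfap5 (0.74), with rho between 0.60 and 0.73 in the 13 mice, between 0.67 and 0.95 in WT and between 0.47 and 0.80 in WWP2 Mut/Mut, and none of these was among the 5 nearest to Nppb. The 5 genes of each list were picked for their rho over these same 18 mice. Their rho in the 13 mice and within genotypes, and the lower means beside Nppb, partly follow from that choice and are not separate support. These values are a description over 18 libraries that share lanes and differ in genotype and gene body coverage.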

How the data were processed

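Poly(A) RNA of the left ventricle of 18 mice was sequenced with a directional kit. The authors aligned reads with STAR 2.5.2b, estimated expected counts per gene with RSEM 1.2.31 against the mouse genome m38 with Ensembl annotation, left out rRNA and mitochondrial genes, and deposited these expected counts and TPM values. TPM therefore summed to between 671770 and 826381 per mouse. Gene body coverage was deposited as a fraction per sample, and RNA concentration as a number (used as score) in ng/µl. Symbols were matched to 51242 of 51435 gene IDs, and 5.11% of counts were not whole.

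Counts were rounded and genes with a total above 1 were tested with edgeR 4.0.16 (TMM, quasi-likelihood; lane and RNA concentration as covariates; R 4.3.3), adjusted over 24804 genes. Called means an adjusted p under 0.05. limma 3.58.1 and DESeq2 1.42.0 were alternatives. Exact permutation tests used every division of the mice (48620 for 9 against 9), on log2(TPM + 1), and correlations used 100000 permutations. Each mouse is 1 replicate. The fitting script was tested on simulated data. The members and lists were chosen with earlier results of these data known. Genes open to naming were the members, Wwp2, the genes of the pathway and marker lists, and the 5 genes nearest to Nppa and Nppb by Spearman rho. The exact tests of Nppb and of the ratio, their linear fits with covariates (residuals permuted), the nearest genes within genotypes, the gene body relations (also within the 13 mice low in Myl7), the log2 concentration, rescaled TPM, Alb and 5-mouse settings were chosen after seeing the data.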

Additional observations from a re-analysis of the deposited data

Results flagged for a closer look

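In 20 groups of 9 mice tested with Dixon's criterion (the gap to the next value over the group's range), 3 values stood apart. For normally distributed values chance gives about 1 in 20. That rate does not apply to the genes flagged, since Myl7 fell into clusters and Nppc was at 3 counts or fewer. Nppc in mutant mouse 8-2 was at 0.07 TPM, on 3 counts, with the next mutant mouse at 0.03 TPM. Myl7 in WT mouse 45-1 was at 338.04 TPM, with the next WT mouse at 156.48 TPM. Myl7 in mutant mouse 8-2 was at 213.75 TPM, with the next mutant mouse at 48.67 TPM. Nppa was at 353.56 TPM in mouse 45-1 and at 775.71 TPM in mouse 8-2, both inside the range of the mice low in Myl7.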

How the results depend on the processing

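The count of members called was 0 in edgeR, limma and DESeq2 under all alternatives run, with 0 to 2 members at an unadjusted p under 0.05 (1 in edgeR with lane and RNA concentration, 1 in DESeq2). Nppb kept a log2 fold change below 0 in all of them, with an unadjusted p on either side of 0.05; leaving out each mouse in turn gave -0.97 to -0.49 in the edgeR fit and -1.32 to -0.98 in the exact permutation test, and Npr3 gave -0.62 to -0.38. The difference in the ratio of Nppb to Nppa was -1.14 to -0.90 when each mouse was left out, -0.91 as deviations from lane means, and -0.68 with lane, RNA concentration and Alb; the same covariates gave -0.93 for Nppb on log2(TPM + 1). The number of genes called was 0 without the 6 mice above 4 times the median Myl7 and 0 without the 5 mice high in Myl7, settings with fewer mice, and 1 to 2 when each mouse was left out (2 without mutant mouse 1-2 and without WT mouse 84-2).

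The fold changes near 0 changed sign, none of them called, and the cause was not tested. Without the mice above 4 times the median Myl7 the log2 fold change was -0.21 for Nppa, -0.12 for Nppc, 0.054 for Npr2 and -0.14 for Corin. Without the 5 mice high in Myl7 it was -0.24 for Nppa, -0.53 for Nppc, 0.027 for Npr2 and -0.13 for Corin. Both genotypes were at or under the floor for Nppc, so its fitted values are no bound. Without covariates it was -0.054 for Nppa, -0.036 for Npr1 and 0.027 for Furin, and with lane alone -0.072, -0.012 and 0.075. With gene body coverage added these were -0.11, -0.10 and 0.10. With log2 RNA concentration Nppa was at -0.047 and Furin at 0.11, and with Alb Nppa was at -0.037 and Corin at -0.24. In limma on log2(TPM + 1) Nppa, Npr1 and Corin were at -0.018, -0.12 and -0.13, with a pseudocount of 0.1 at -0.018, -0.14 and -0.14, and after rescaling TPM to 1000000 at -0.024, -0.13 and -0.14. Leaving out each mouse in turn gave -0.14 to 0.22 for Nppa, -0.13 to 0.12 for Npr1, -0.071 to 0.17 for Corin, -0.23 to 0.10 for Furin, and -0.051 to 0.29 for Nppa with Myl7 in the model. The rho of Nppa with Myl7 was -0.086 within WT and -0.21 as deviations from lane means, and that of Nppa with Nppb was -0.21 within WWP2 Mut/Mut. Of 13 pairs among members, 0 passed on log2(TPM + 1), while 1 by Spearman and 3 by Pearson passed as deviations from lane means, and 0 by Spearman and 2 by Pearson on TMM-normalised log2 counts. The permutations of the deviations did not allow for the lane means removed. No paired analysis was possible because the groups share no replicate numbers.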

Other observations

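Markers of the other cell types of the heart were read in the same edgeR fit, with none called. The 5 fibroblast genes all had a log2 fold change below 0 (median -0.15), among them Dcn at 238 ± 80.8 TPM in WT and 195 ± 44.6 TPM in WWP2 Mut/Mut, and none had an unadjusted p under 0.05. The 5 endothelial genes had a median of 0.01 and the 5 immune genes a median of -0.0018, again with none at an unadjusted p under 0.05. Of 5 smooth muscle and pericyte genes, Tagln was higher (0.48, n = 18, p = 0.0324, adjusted p = 1), with a median of 0.15. Of 3 adipocyte genes, Plin1 was lower (-1.63, n = 18, p = 0.0332, adjusted p = 1), at 0.184 ± 0.315 TPM in WT and 0.0533 ± 0.0520 TPM in the mutant. Of all genes tested, 1.09% were higher and 2.57% lower at an unadjusted edgeR p under 0.05.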
